A study of Mus musculus with 6 samples.

Results

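The ETS family of transcription factors was followed through 10 of its genes (Erg, Fli1, Ets1, Ets2, Elf1, Elf4, Etv6, Spi1, Spib and Gabpa), chosen by symbol and all found among the 26286 genes of the count table. The other 16 ETS genes of the mouse were taken as the rest of the family. RNA was sequenced from 6 libraries of B progenitor acute lymphoblastic leukemia, 3 of them from untreated mice and 3 from mice fed doxycycline (dox) for 3 days. All 6 libraries share the tri-transgenic leukemia A024, the Rag1 knockout genotype of the animals, the bone marrow as source and cell sorting before RNA extraction. Untreated cells were sorted as GFPhigh and dox cells as GFPmid, and the labels equate the treatment with restoration of Pax5, a regulator that B cells need to establish and keep their identity. The sort gate and the treatment therefore cannot be told apart, and no dox-fed control without the transgenes was analysed here. The labels used here give neither the transgenes nor the age of the animals. The libraries come from different mice but from a single leukemia, so p-values measure the spread between mice and not between leukemias.

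ETS proteins share a DNA-binding domain, the ETS domain, which reads a GGAA core in DNA. In blood cells they act at many lineage genes, often together with a partner bound beside them. Spi1 (the PU.1 protein) and Spib are known for their part in B cell and myeloid development, Ets1 for lymphocyte identity and for its recruitment to DNA by Pax5, and Erg and Fli1 for progenitors. ETV6 and ERG are known targets of rearrangement or deletion in human leukemia.

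Of the 10 genes, 4 (Erg, Spib, Spi1 and Elf1) were higher after dox, 2 (Ets2 and Gabpa) were lower, and 4 (Fli1, Ets1, Elf4 and Etv6) did not pass the test. A gene was called at an adjusted p under 0.05 in edgeR's quasi-likelihood test, with Benjamini-Hochberg adjustment over the 12275 genes tested. All 10 passed the filter on low counts. Over all genes tested, 27.0% were called higher and 26.6% lower, so the 6 of 10 called stand beside a series in which 53.6% of genes were called in one direction or the other. The groups did not overlap for 6 of the 10 genes, beside 62.2% of all genes tested. The median log2 fold change was 0.03 over the 10 genes and 0.01 over all genes tested. The share called was thus near that of all genes.

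Pax5 itself, the gene that the treatment is labelled to restore, rose from 117.5 ± 32.0 to 246.3 ± 30.2 CPM (counts scaled to library size, mean ± SD, n = 3). Library totals ran from 14185203 to 15612435 counts. Summed over 8 markers of B cell progenitors, levels were 5777 to 5892 CPM in untreated and 7911 to 8375 CPM in dox libraries, so the labelled cell type had its markers throughout. Of these 8, 6 were called higher and 1 lower, beside 27.0% and 26.6% of all genes tested. By mean over the 6 libraries, the most abundant were Cd24a (1928 CPM untreated, 1050 CPM dox, called lower) and Vpreb1 (792.7 and 1386 CPM, called higher). Summed markers of macrophages ran from 21.5 to 30.6 CPM in untreated and from 53.3 to 120.8 CPM in dox libraries, and those of neutrophils from 85.9 to 110.6 and from 107.5 to 512.5 CPM. Dox replicate 1 was the highest library for both lists. Lyz2 alone gave 75.2 of the 120.8 CPM of the macrophage list in dox replicate 1. In untreated replicate 1 it gave 16.6 of the 30.6 CPM.

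Promoter windows of the genes with the largest changes among the 10 are shown so that their ETS cores can be seen. RefSeq sequence (GRCm38.p6) was at hand for 7 of the 10 genes, in 11 windows of 250 bases before an annotated start. The count table gives reads per gene and cannot say which start was in use, so all 3 windows of Erg are given. Capitals mark the core GGAA or its reverse complement TTCC, and sequences run 5′ to 3′ on the strand of the gene.
Spib, chr7:44532072-44532321, minus strand: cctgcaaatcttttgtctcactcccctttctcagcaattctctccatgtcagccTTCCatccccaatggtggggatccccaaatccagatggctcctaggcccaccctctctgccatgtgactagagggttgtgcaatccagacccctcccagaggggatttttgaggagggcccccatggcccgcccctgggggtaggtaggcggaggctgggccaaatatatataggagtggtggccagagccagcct
Erg, chr16:95586594-95586843, minus strand: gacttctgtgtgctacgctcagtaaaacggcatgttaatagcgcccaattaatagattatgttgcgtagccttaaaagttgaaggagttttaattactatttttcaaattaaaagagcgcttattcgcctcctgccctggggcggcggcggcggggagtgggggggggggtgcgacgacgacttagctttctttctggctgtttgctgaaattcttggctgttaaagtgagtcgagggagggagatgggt
Erg, chr16:95530366-95530615, minus strand: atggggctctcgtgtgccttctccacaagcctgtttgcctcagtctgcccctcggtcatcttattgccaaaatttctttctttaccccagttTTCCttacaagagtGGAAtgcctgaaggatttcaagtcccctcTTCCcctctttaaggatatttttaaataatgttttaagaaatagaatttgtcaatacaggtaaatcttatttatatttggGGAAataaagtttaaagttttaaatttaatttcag
Erg, chr16:95459349-95459598, minus strand: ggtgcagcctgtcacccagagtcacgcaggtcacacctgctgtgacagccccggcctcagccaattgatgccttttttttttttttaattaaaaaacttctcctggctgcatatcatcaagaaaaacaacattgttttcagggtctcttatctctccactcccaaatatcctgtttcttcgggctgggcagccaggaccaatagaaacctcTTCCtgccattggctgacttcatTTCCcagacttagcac
Ets2, chr16:95702157-95702406, plus strand: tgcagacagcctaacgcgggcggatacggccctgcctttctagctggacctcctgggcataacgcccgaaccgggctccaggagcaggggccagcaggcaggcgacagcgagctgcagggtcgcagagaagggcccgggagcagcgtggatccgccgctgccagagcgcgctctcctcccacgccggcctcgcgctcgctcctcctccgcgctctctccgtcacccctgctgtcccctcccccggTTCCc

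The core was found 1 time in the Spib window, 1 time in the Ets2 window and 0, 4 and 2 times in the windows of Erg, in the order shown. Over all 32851 windows of this length the median was 3 matches, and 93.4% held at least 1 match. The longer ETS site CCGGAAGT, searched as this exact string on both strands, was in none of the 11 windows of these genes and in 2.88% of all windows. Sites that differ from it in a base were not counted. The purine-rich site GAGGAAGT, which also contains the core, was in the window of Gabpa alone, beginning at base -113 from the start, and in 2.44% of all windows. A match describes these letters and says nothing on binding.

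Spib and Spi1 form the SPI branch of the family, and both rose. Spib (Entrez Gene 272382) measured 535.1, 459.7 and 476.9 CPM in untreated replicates 1, 2 and 3 and 1107, 947.6 and 856.9 CPM in dox replicates 1, 2 and 3. Every dox library lay far above every untreated one, and dox replicate 1 was the highest. Spib rose by 0.98 on the log2 scale (SE 0.11), a 1.98-fold rise (adjusted p = 7.49e-05, edgeR).

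Spi1 (20375) measured 51.0, 46.8 and 53.5 CPM in untreated libraries and 88.0, 78.4 and 78.8 CPM in dox libraries. The groups were again apart, with the 3 dox libraries close together. Spi1 rose by 0.70 on the log2 scale (SE 0.08, 1.62-fold, adjusted p = 0.000133, edgeR). Spi1 is also strongly expressed by macrophages and granulocytes, whose markers moved in the same direction. Of 12 macrophage markers, 10 were tested and 9 were called higher, and of 10 neutrophil markers, 8 were tested and 7 were called higher. Over all genes tested, 27.0% were called higher. The groups did not overlap for 9 tested macrophage markers and 3 tested neutrophil markers, beside 62.2% of all genes tested. No marker of either list was at 0 in all libraries. By mean over the 6 libraries, the most abundant were Lyz2 (16.1 CPM untreated, 42.3 CPM dox) and Vcam1 (1.40 and 9.97 CPM) in the macrophage list, and S100a9 (32.8 and 93.1 CPM) and S100a8 (19.1 and 62.1 CPM) in the neutrophil list. Lyz2 overlapped between the groups, at 16.7 CPM in dox replicate 2 and 13.1 to 18.7 CPM in untreated libraries. Less abundant macrophage markers whose groups did not overlap include Adgre1 (0.231 and 1.66 CPM), Mrc1 (0.823 and 3.74 CPM) and C1qb (0.504 and 3.25 CPM). Cd68 (3.63 and 4.30 CPM), the tested macrophage marker that was not called, had a log2 fold change of 0.25 (SE 0.18). In dox replicate 2, where Spi1 was 78.4 CPM, the neutrophil markers summed to 107.5 CPM, within the untreated range, and the macrophage markers to 53.3 CPM, above it. The part of these cells in the rise of Spi1 was not tested. Without dox replicate 1 the log2 fold change was 0.64 for Spi1 and 0.88 for Spib, and both were called. In bulk RNA, a different number of cells of some type and a different amount of RNA per cell cannot be told apart, which holds for each gene here.

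Spib was the more abundant of the pair throughout. Levels of different genes are compared as RPKM, reads per kilobase of the deposited gene length, scaled to library size as CPM is. Spi1 stood at 0.199, 0.213 and 0.234 of the level of Spib in untreated replicates 1, 2 and 3 and at 0.166, 0.173 and 0.192 in dox replicates 1, 2 and 3. The ratio was lower in every dox library, by 0.28 on the log2 scale. The exact two-sided permutation test gave p = 0.1, which is the lower limit for 3 against 3 libraries, and 0.1 after adjustment over the 4 pairs compared in this way.

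Spic, the third member of this branch, known from red pulp macrophages, had 3, 1 and 1 counts in untreated and 15, 13 and 12 counts in dox libraries. That is 5 against 40 counts, a ratio of 7.78 (exact binomial 95% interval 3.07 to 25.3, counting error only), and it was called (adjusted p = 0.00142, edgeR). Its log2 fold change was 2.87 (SE 0.52) and moved to 3.56 without untreated replicate 1, and a filter of 1 CPM in 3 libraries left Spic untested. At 0.887 CPM after dox, Spic was far below Spi1 and Spib, and macrophage markers rose beside it, whose part in its rise was not tested.

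**Figure D1:**
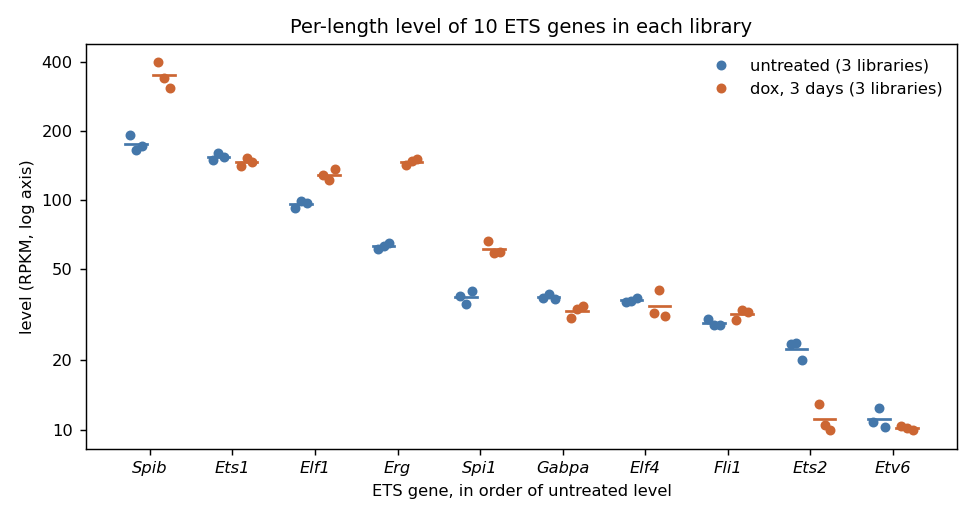
Level of each of the 10 ETS genes in RPKM (log axis) in the 3 untreated (blue) and 3 dox (orange) libraries, with points for libraries and short lines for group means. Spib, Elf1, Erg and Spi1 lie higher in every dox library, Ets2 and Gabpa lie lower, and the points of Ets1, Elf4, Fli1 and Etv6 overlap.

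Erg and Fli1 encode closely related proteins of the ERG branch, of which Erg rose and Fli1 did not pass the test. Erg (13876) measured 135.9, 139.7 and 143.4 CPM without dox and 315.7, 328.1 and 332.5 CPM with it. Both groups were tight and far apart. Its log2 fold change of 1.22 (SE 0.06, 2.33-fold, adjusted p = 2.62e-06, edgeR) was the largest rise of the 10 genes.

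Fli1 (14247) measured 93.6, 88.4 and 87.9 CPM without dox and 92.3, 102.3 and 100.6 CPM with it. Dox replicate 1 lay within the untreated range, and the gene did not pass (log2 fold change 0.13, SE 0.07, adjusted p = 0.147, edgeR). Per length, Erg stood at 2.02, 2.21 and 2.28 times the level of Fli1 in untreated libraries and at 4.77, 4.47 and 4.61 times in dox libraries. The ratio rose by 1.09 on the log2 scale and the groups did not overlap (exact two-sided permutation p = 0.1, the smallest possible).

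Erg and Fli1 are also expressed by endothelial cells and by megakaryocytes. Of 8 endothelial markers, Tie1 was at 0 in all libraries, Cdh5 averaged 0.342 CPM in untreated and 0.578 CPM in dox libraries, and Vwf averaged 0.0233 and 0 CPM. The summed level of that list, 94.9 to 102.2 CPM in untreated and 129.1 to 158.7 CPM in dox libraries, was carried by Pecam1 (97.5 and 145.3 CPM), which leukocytes express as well. Eng, next in abundance, averaged 1.14 and 1.02 CPM. The 7 megakaryocyte markers summed to 0.604 to 1.16 CPM in untreated and 1.04 to 1.71 CPM in dox libraries, and none was abundant enough to be tested. Gp5 (0.433 and 0.642 CPM) and Itga2b (0.203 and 0.464 CPM) led that list.

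Ets1 and Ets2 gave the family its name, and here Ets2 fell while Ets1 did not pass the test. Ets1 (23871), which in B cells is known to restrain plasma cell formation, measured 756.1, 806.2 and 776.0 CPM without dox and 713.0, 772.2 and 741.1 CPM with it. The ranges overlapped, and the log2 fold change of -0.07 (SE 0.07) did not pass (adjusted p = 0.418, edgeR). T cells and natural killer cells also express Ets1, and Cd3e and Cd8a, defining T cell markers, were at 0 in all libraries. The 9 markers of those cells summed to 3.36 to 5.71 CPM in untreated and 3.95 to 10.1 CPM in dox libraries, led by Klrb1c (3.66 and 4.53 CPM) and Prf1 (0.340 and 0.987 CPM). Only these 2 were tested. Klrb1c was not called, at 9.19 CPM in dox replicate 2 and 1.97 and 2.43 CPM in dox replicates 1 and 3. Prf1 was called higher (log2 fold change 1.52, SE 0.55, adjusted p = 0.0433, edgeR), though its groups overlapped.

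Ets2 (23872), a relative known to respond to Ras and ERK signalling, measured 84.2, 84.7 and 71.2 CPM without dox and 45.9, 37.4 and 35.4 CPM with it. All dox libraries were lower than all untreated ones. The fall came to -1.02 on the log2 scale (SE 0.11, adjusted p = 9.33e-05, edgeR), the deepest fall of the 10 genes. Per length, Ets1 stood at 6.31, 6.69 and 7.66 times the level of Ets2 in untreated libraries and at 10.9, 14.5 and 14.7 times in dox libraries, a difference of 0.95 on the log2 scale (exact two-sided permutation p = 0.1, the smallest possible).

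Among the genes of the count table, Erg and Ets2 are neighbours on chromosome 16 in RefSeq, as Fli1 and Ets1 are on chromosome 9. Erg rose by 1.22 and Ets2 changed by -1.02 on the log2 scale, so the members of this adjacent pair moved in opposite directions. Among genes in the table, the next gene on the far side of Erg is Kcnj15, a potassium channel gene, which rose by 1.21 (SE 0.29, adjusted p = 0.00591, edgeR) from a low level of 1.59 to 3.70 CPM. The next gene beyond Ets2 is Psmg1, a proteasome assembly chaperone gene, which changed by -0.72 (SE 0.10, adjusted p = 0.000322, edgeR). Around the other pair, Kcnj1 averaged 0 CPM in both groups, and Kirrel3 averaged 0.0224 CPM in untreated and 0 CPM in dox libraries.

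**Figure D2:**
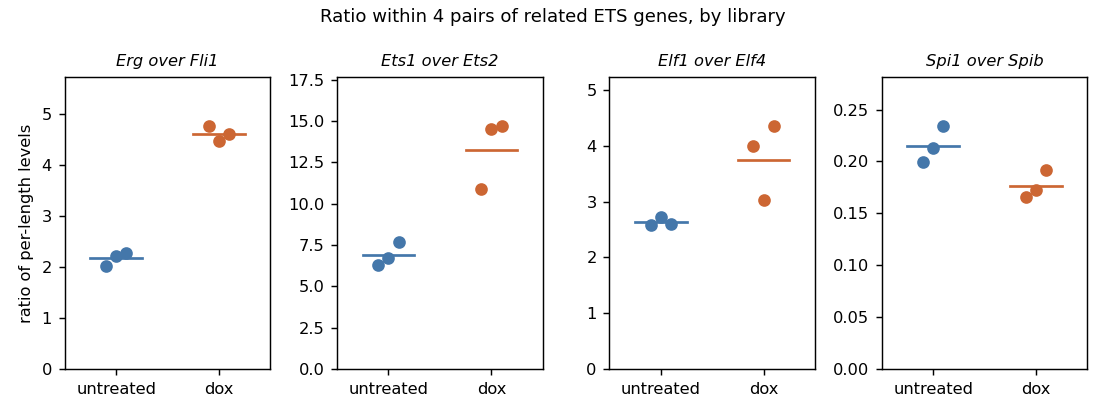
Ratio of per-length levels within 4 pairs of related ETS genes in each library (linear axes from 0), with points for libraries and lines for the mean on the log scale. Erg over Fli1, Ets1 over Ets2 and Elf1 over Elf4 are higher in every dox library, and Spi1 over Spib is lower.

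Elf1 and Elf4 belong to the ELF branch. Elf1 (13709), active in lymphoid and other blood cells, measured 390.2, 417.4 and 410.0 CPM without dox and 540.4, 515.9 and 576.0 CPM with it. It was higher in every dox library, with a log2 fold change of 0.42 (SE 0.07, 1.34-fold, adjusted p = 0.000921, edgeR).

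Elf4 (56501), known for its part in the quiescence of blood stem cells and T cells, measured 210.0, 212.1 and 219.0 CPM without dox and 187.2, 236.5 and 183.1 CPM with it. Untreated libraries were close together, whereas dox replicate 2 lay above them and dox replicates 1 and 3 below. Elf4 had a log2 fold change of -0.08 (SE 0.10, adjusted p = 0.523, edgeR), and without dox replicate 2 it was -0.21 and called (adjusted p = 0.0296). The ratio of Elf1 to Elf4 per length was 2.58, 2.73 and 2.60 in untreated and 4.002, 3.02 and 4.36 in dox libraries, higher in every dox library by 0.51 on the log2 scale (exact two-sided permutation p = 0.1, the smallest possible).

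Elf2, the remaining ELF gene with appreciable expression, went the other way from Elf1. Its level was 158.0, 173.8 and 159.5 CPM without dox and 112.7, 124.7 and 115.5 CPM with it. The groups did not overlap, and Elf2 changed by -0.48 on the log2 scale (SE 0.07, adjusted p = 0.000473, edgeR). Elf3 and Elf5, genes of epithelial cells, had 0 counts in every library.

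Etv6 (14011), which encodes the repressor TEL, had the lowest mean level per length of the 10 genes in both groups. It measured 59.5, 68.9 and 56.8 CPM without dox and 57.2, 56.3 and 54.9 CPM with it. Dox replicate 1 lay within the untreated range, and the log2 fold change of -0.14 (SE 0.09) did not pass (adjusted p = 0.208, edgeR).

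Gabpa (14390), the DNA-binding subunit of the GA-binding protein, measured 186.7, 194.3 and 184.2 CPM without dox and 153.0, 167.0 and 172.9 CPM with it. Every dox library was lower, by a small amount (log2 fold change -0.20, SE 0.07, adjusted p = 0.0355, edgeR). The call was lost without untreated replicate 1 (adjusted p = 0.0631), untreated replicate 2 (0.122), untreated replicate 3 (0.0711) or dox replicate 1 (0.137), at log2 fold changes of -0.21, -0.18, -0.22 and -0.15. Each of these fits tests 5 libraries.

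**Figure D3:**
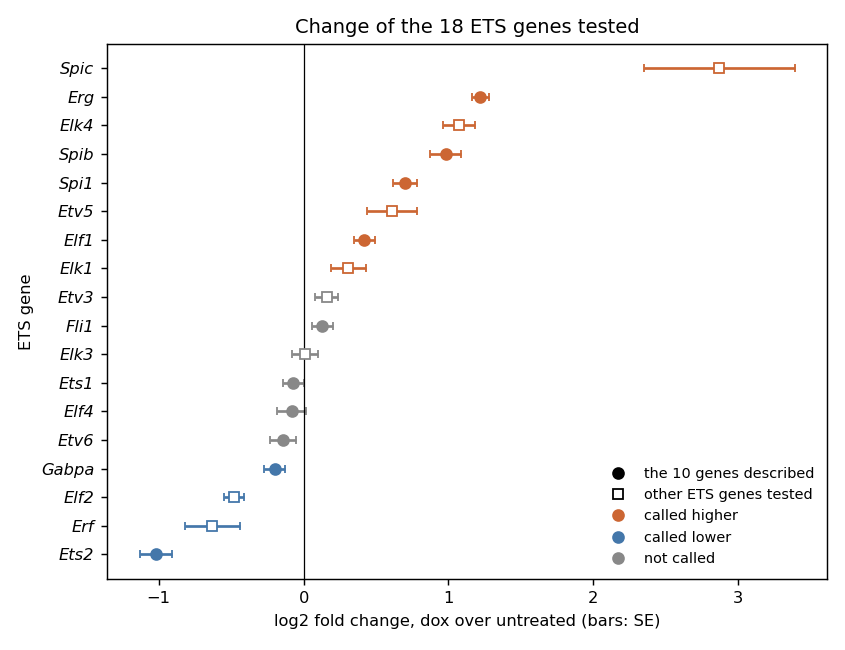
Log2 fold change, dox over untreated, of the 18 ETS genes that passed the low-count filter, with bars of 1 SE. Filled circles are the 10 genes described and open squares the other ETS genes, and colour gives the call. Changes run from -1.02 for Ets2 to 1.22 for Erg among the circles, and Spic has the widest bar.

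Of the other 16 ETS genes, 8 passed the filter on low counts. Among these, 4 (Elk4, Spic, Etv5 and Elk1) were called higher, 2 (Elf2 and Erf) lower, and 2 (Etv3 and Elk3) not, beside 27.0% called higher and 26.6% lower over all genes tested. Elk4, which binds DNA with serum response factor, measured 75.8, 91.4 and 87.6 CPM without dox and 156.0, 207.2 and 171.3 CPM with it, apart in all cases. Elk4 rose by 1.07 on the log2 scale (SE 0.11, adjusted p = 7.14e-05, edgeR), beside 0.31 (SE 0.12) for Elk1 and 0.01 (SE 0.09, not called) for Elk3, its relatives.

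The call of Elk1 was marginal (adjusted p = 0.0499, edgeR) and was lost in 11 of the 14 other fits. Etv5, of the PEA3 branch, rose by 0.61 (SE 0.17) from 4.08 to 6.21 CPM, and the repressor gene Erf changed by -0.63 (SE 0.19) from 5.29 to 3.43 CPM. The call of Etv5 was lost without untreated replicate 2 (0.52, adjusted p = 0.0630) or dox replicate 3 (0.51, adjusted p = 0.0592), and that of Erf without untreated replicate 2 (-0.49, adjusted p = 0.0952) or dox replicate 1 (-0.59, adjusted p = 0.0562). Etv3 had a log2 fold change of 0.16 (SE 0.08) and was not called. Fev, Etv2, Elf3, Elf5 and Spdef had 0 counts in all 6 libraries, where 3 counts, the limit that a count of 0 allows, come to 0.192 to 0.210 CPM per library. Ehf had 3 counts, and Etv1 and Etv4 had 1 count each, over all libraries.

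The order of the 10 genes by level per length was Spib, Ets1, Elf1, Erg, Spi1, Gabpa, Elf4, Fli1, Ets2 and Etv6 in untreated libraries. Spib ran from 165.0 to 192.1 RPKM there and Etv6 from 10.2 to 12.4 RPKM. Neighbours in this order did not overlap, except that Spi1 overlapped Gabpa and Gabpa overlapped Elf4. After dox the order was Spib, Erg, Ets1, Elf1, Spi1, Elf4, Gabpa, Fli1, Ets2 and Etv6. Erg, at 142.6 to 150.2 RPKM, now overlapped Ets1, at 140.9 to 152.6 RPKM, and Elf4, Gabpa and Fli1 overlapped in turn, as did Ets2 and Etv6.

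Summed over the 26 ETS genes, the level was 793.5, 792.0 and 782.9 RPKM in untreated and 1118, 1100.4 and 1050.8 RPKM in dox libraries. The mean went from 789.5 ± 5.74 to 1089.7 ± 34.9 RPKM (SD, n = 3), and the 2 groups were apart. Of the net difference of 300.3 RPKM, Spib made up 57.4% and Erg 27.9%, followed by Elf1 with 10.9%, Elk4 with 8.46% and Spi1 with 7.81%, while Elf2 (-5.74%), Ets2 (-3.79%) and Ets1 (-2.46%) counted against it. The share of Spib in the summed level went from 22.3 ± 1.73% to 31.9 ± 3.24% and that of Erg from 7.99 ± 0.271% to 13.5 ± 0.772%. Ets1 went from 19.5 ± 0.646% to 13.5 ± 0.753% of the sum, although its own level did not pass the test. These shares are descriptions and were not tested.

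**Figure D4:**
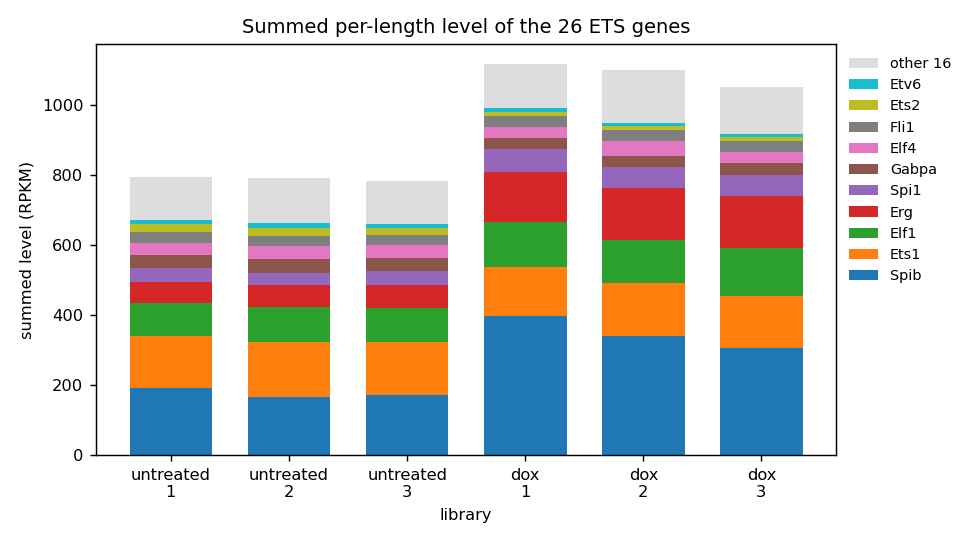
Summed per-length level (RPKM, linear axis from 0) of the 26 ETS genes in each library, stacked by gene, with the 16 other ETS genes in grey. The dox bars reach 1050.8 RPKM or more and the untreated bars 793.5 RPKM or less, and the segments of Spib and Erg differ most.

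Genes of proteins known to work with ETS factors were called in both directions, as were genes over the whole table. Of 11 genes in a list of such partners, 4 (Irf4, Irf8, Pax5 and Srf) were higher, 4 (Runx1, Cbfb, Sin3a and Hdac3) lower, and 3 (Gabpb1, Gabpb2 and Daxx) did not pass, with a median log2 fold change of 0.04. These 8 of 11 called stand beside 53.6% of all genes tested. Pax5 is among these 8 and is the gene that the treatment is labelled to restore, so its call is no separate result on partners. Irf4 and Irf8 bind composite sites together with PU.1 or Spi-B. Irf4 measured 996.5, 1153.6 and 976.3 CPM without dox and 1401, 1948 and 1507 CPM with it, and Irf8 measured 156.7, 146.1 and 126.7 CPM and then 241.9, 296.8 and 216.7 CPM. Both were higher in every dox library, Irf4 by 0.64 (SE 0.13) and Irf8 by 0.81 (SE 0.12) on the log2 scale. Macrophages and dendritic cells express Irf8 as well, and the part of the macrophage markers in its rise was not tested.

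Runx1 and Cbfb, whose products form a complex that pairs with Ets1 on DNA, both fell. Runx1 measured 334.8, 380.2 and 335.9 CPM without dox and 206.6, 238.8 and 169.5 CPM with it, a log2 fold change of -0.77 (SE 0.12). Cbfb changed by -0.30 (SE 0.07). The corepressor genes Sin3a and Hdac3, used by Etv6, changed by -0.31 (SE 0.08) and -0.23 (SE 0.07), and Hdac3 was not called without untreated replicate 2, untreated replicate 3 or dox replicate 1. Srf, the partner of the Elk proteins, rose by 0.33 (SE 0.08). Gabpb1 and Gabpb2, which encode the activating subunits that pair with Gabpa, had log2 fold changes of 0.04 (SE 0.06) and 0.05 (SE 0.08) and were not called.

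Genes described as targets of Spi1 and Spib were mostly higher after dox. Of 14 listed, all of them tested, 9 rose (Btk, Blnk, Syk, Cd79a, Cd79b, Csf1r, Ms4a1, Cd72 and Blk), 2 fell (Plcg2 and Grap2) and 3 did not pass (Fcgr2b, Il7r and Nfkb1). The median log2 fold change was 0.78, beside 0.01 over all genes tested, of which 27.0% were called higher and 26.6% lower. Several of them, such as Cd79a and Blnk, are also known targets of Pax5. Csf1r is in the macrophage list too, at a low level of 0.869 CPM untreated and 3.59 CPM dox. The part of macrophages in its rise was not tested. Syk, the kinase downstream of the B cell receptor, measured 901.2, 907.6 and 856.2 CPM without dox and 1872, 1811 and 1643 CPM with it. Ms4a1, which encodes CD20, rose by 4.06 (SE 0.22), Cd79b by 1.15 (SE 0.08), Syk by 1.00 (SE 0.08) and Cd79a by 0.96 (SE 0.10) on the log2 scale. Plcg2 changed by -0.25 (SE 0.08) and was not called without untreated replicate 2, untreated replicate 3 or dox replicate 1. Grap2, an adaptor gene, changed by -0.43 (SE 0.11). Il7r, the interleukin-7 receptor gene, had a log2 fold change of -0.27 (SE 0.20) and was called lower without dox replicate 2, which gave 3 members lower.

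Spib is also known from plasmacytoid dendritic cells. Siglech, which defines them, averaged 0.0224 CPM in untreated and 0.108 CPM in dox libraries. The 7 dendritic cell markers summed to 19.5 to 25.6 CPM in untreated and 16.01 to 33.6 CPM in dox libraries, and none was at 0 in all libraries. Bst2 (21.5 and 23.3 CPM) and Flt3 (1.34 and 1.02 CPM), both also expressed by lymphoid cells, were the most abundant by mean over the 6 libraries. Itgax, which macrophages express as well, was the 1 marker of this list called higher, from 0.205 to 1.04 CPM (log2 fold change 2.30, SE 0.45, adjusted p = 0.00222, edgeR). Markers of red cells summed to 3.62 to 5.31 CPM in untreated and 1.46 to 7.57 CPM in dox libraries, led by Hba-a1 (1.89 and 1.203 CPM) and Hbb-b1 (1.71 and 1.62 CPM).

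Genes described as GABP targets were lower or did not pass. Of 8 listed, 5 fell (Skp2, Tfb1m, Tfam, Atp5b and Cox5b) and 3 (Tfb2m, Cox4i1 and Il7r) did not pass, with a median log2 fold change of -0.40, and over all genes tested 26.6% were called lower. None was called higher by edgeR, 0 at an unadjusted p under 0.05, and 0 by DESeq2 or limma voom. Skp2, a ubiquitin ligase subunit that promotes entry into S phase, measured 80.8, 94.2 and 78.2 CPM without dox and 39.1, 43.1 and 45.1 CPM with it, a log2 fold change of -0.99 (SE 0.09). The mitochondrial transcription genes Tfb1m and Tfam changed by -0.76 (SE 0.10) and -0.45 (SE 0.07), and Atp5b and Cox5b of the respiratory chain and ATP synthase by -0.47 (SE 0.09) and -0.34 (SE 0.10). Cox5b was not called without untreated replicate 1 or untreated replicate 3. Cox4i1 averaged 190.3 CPM in both groups.

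**Figure D5:**
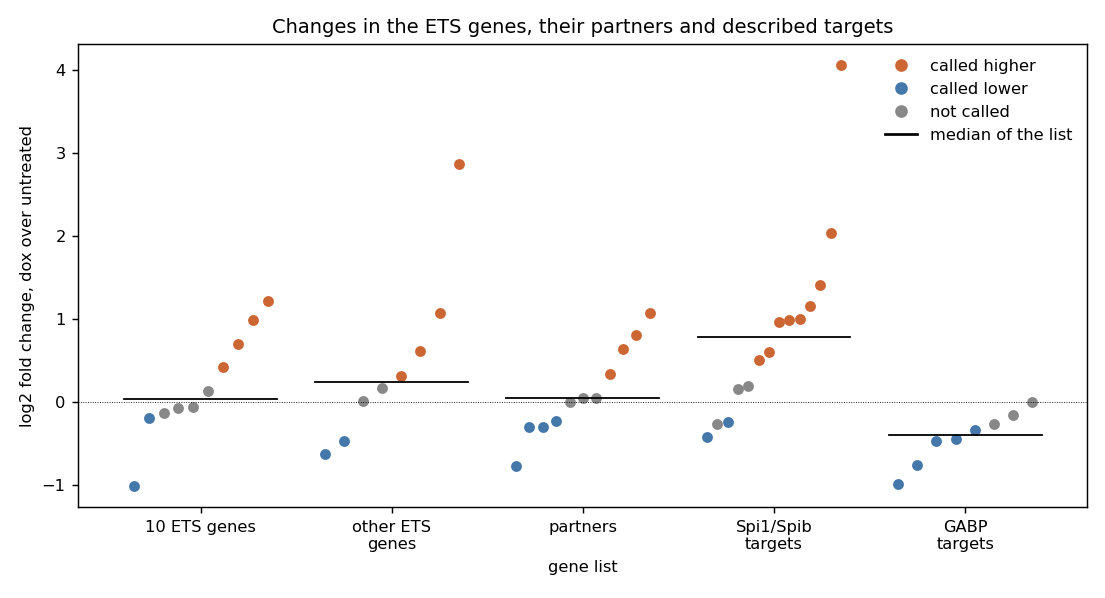
Log2 fold change, dox over untreated, of each tested gene in 5 lists, sorted within the list, with colour for the call and a black line for the median. Medians are 0.03 for the 10 ETS genes, 0.24 for the other ETS genes, 0.04 for partners, 0.78 for described Spi1 and Spib targets and -0.40 for described GABP targets.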

How the data were processed

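The authors deposited raw read counts, with a row per Entrez Gene identifier, beside a gene length in bases. Per the submitters' processing notes, the authors used CASAVA 1.8.2 and featureCounts on build mm9; aligner, annotation and strandedness were not given in the sources used here, so reads of genes overlapping on opposite strands cannot be told apart. The files of the 6 samples repeat the columns of the series table exactly. Symbols came from RefSeq for 24176 of 26286 identifiers. RefSeq is on GRCm38.p6, another build than mm9, and was used for symbols, for which genes neighbour each other and for the promoter windows, whose coordinates are on GRCm38.p6 and were not matched to the mm9 counts.

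Genes were filtered with filterByExpr (minimum count 10), leaving 12275 with 99.93% of counts, and scaled by TMM. Untreated and dox libraries were compared with edgeR 4.0.16 (quasi-likelihood, no covariates) in R 4.3.3 over the whole table. The SE is the size of the log2 fold change divided by the square root of F. CPM and RPKM were computed here on the TMM scale. The script was tested on simulated counts. Depth differed little between libraries, and a count interval covers counting error only. Alternatives were DESeq2 1.42.0 size factors and test, total-count scaling, other filters, limma 3.58.1 voom, a replicate block, a minimum fold change of 1.5 and leaving out each library.

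Members, lists of partners, targets and markers, and the rule for named genes were chosen with earlier results of these data known. The rule names the 10 genes, other ETS genes called or above 1 RPKM, the 4 smallest p in each partner and target list with members behind counts of 5 or fewer, the neighbours of Erg, Ets2, Fli1 and Ets1, the 2 most abundant genes (by mean CPM over the 6 libraries) and those at 0 in each marker list, and Pax5. Others, such as Cdh5, Vwf, Siglech, Cd68, Adgre1, Mrc1, C1qb and Itgax, were named after their values were seen.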

Additional observations from a re-analysis of the deposited data

How the results depend on the processing

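Erg, Spib and Ets2 kept their direction and call under all 14 alternatives, at log2 fold changes of 1.18 to 1.24, 0.88 to 1.06 and -1.14 to -0.95, and the 4 higher members numbered 4 in each fit that left out a library. A minimum fold change of 1.5 gave 2 members higher and 1 lower, and 2 other ETS genes higher and 0 lower. Among partners it gave 1 higher (Pax5, which the treatment is labelled to restore) and 0 lower. It gave 7 described Spi1 and Spib targets higher and 0 lower, and 0 described GABP targets higher and 1 lower. Over all genes, 7.56% were called higher and 5.46% lower in that test. Elf1 (0.42), Spi1 (0.70) and Gabpa (-0.20) were not called there, because that test asks for more than a difference from 0. Leaving out each library in turn gave 1 to 3 members lower, 2 to 4 other ETS genes higher and 1 to 2 lower, and 1 to 3 described Spi1 and Spib targets lower. In the same fits the log2 fold change ran from -0.24 to -0.15 for Gabpa, from -0.21 to -0.02 for Elf4 and from -0.07 to 0.07 for Elk3, which was -0.02 with no filter, and the share of Elf1 in the family changed by -0.904 to 0.0370 percentage points. With shares taken over the 10 genes alone, a smaller sum, the change was -1.03 points for Fli1, -7.78 for Ets1, -2.22 for Ets2 and for Gabpa, -1.87 for Elf4 and -0.613 for Etv6. Deviations of same-numbered libraries correlated at 0.31, 0.29 and -0.04 for numbers 1, 2 and 3, and those crossed between numbers 1 and 2 at -0.34 and -0.28. Deviations were taken from the mean of each group, so the crossed values follow in part from the matched ones and are not separate evidence. Libraries of numbers 1 and 2 correlated best with their own number and those of number 3 did not. The numbers were not taken as pairs in the main test. With the replicate number as a block, 4 members were higher and 2 lower as before, 6790 genes were called in place of 6582, 3 other ETS genes were higher (Elk1, at 0.32, was not called) and Il7r was called lower. Where a left-out library changed a call, the cause was not tested. The 10 genes had 537 or more counts in each library, and depth limits Spic and the ETS genes at 0.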
